A study of Mus musculus with 2 samples.

Results

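The V and J segments of the T cell receptor (TCR) alpha chain, TRA, were read from every contig that the deposited annotation marks as chain TRA and productive. These were 5558 of 38397 assembled contigs, and they lay in 4864 of 5479 cell barcodes (88.8%, 95% exact Clopper-Pearson interval 87.9 to 89.6%). They named 76 V segments and 42 J segments and held 551 distinct nucleotide sequences of the third complementarity determining region (CDR3), the stretch where V and J meet. Each distinct CDR3 was counted once, under the V and J names given to it in most of its barcodes, so that a large family of cells weighs no more than a single cell. Intervals throughout are at the 95% level and take in counting error alone, not the spread between mice or libraries.

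The library came from GD2TIF cells, T cells of Cas9 transgenic mice that were activated and then spin-infected with a retrovirus. The virus targets Bcor, a Polycomb corepressor gene, and Zc3h12a, which encodes an RNA-degrading enzyme, and it carries a chimeric antigen receptor against the ganglioside GD2 (14g2a). Each immunocompetent C57BL/6 recipient received 1000000 of these cells, and 2 months later 1000000 CD8+Thy1.1+ cells were sorted from spleen and captured on a Singleron microwell chip with barcoded beads. The series has 1 TCR library and 1 single-cell RNA library of a single group, so conditions could not be compared and no test was made. The sources used here do not give the number of mice, and TCRs of the infused cells are not analysed here.

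An alpha chain is built in the thymus by joining one V segment directly to one J segment, with no D segment between them. Bases are trimmed and added at the joint, so most cells carry their own CDR3, and cells of one animal that share one usually descend from one cell. The V segments lie upstream of the J segments, and an allele can rearrange again, using V segments farther upstream and J segments farther downstream each time. In the C57BL/6 mouse part of the V region is present in copies, whose segments are marked D or N in their names, and those copies are close to identical.

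The CDR3 sequences carried by the most barcodes are shown first, because cell shares of the segments rest on them. Each is printed 5′ to 3′ from the deposited contigs. Going from the 3′ end, bases are in capitals as long as at least 75% of the other distinct sequences of the same J carry the same base there. Each position is judged by itself, so fewer than 75% may share the whole capital stretch, called the J end below. The lower case part before it holds the V segment's end, the joint and any J bases from the first position that fewer of those sequences share. These were not separated.
TRAV3D-3 TRAJ21: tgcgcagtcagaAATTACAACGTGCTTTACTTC
TRAV13N-1 TRAJ15: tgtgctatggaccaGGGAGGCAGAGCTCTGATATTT
TRAV16D-DV11 TRAJ57: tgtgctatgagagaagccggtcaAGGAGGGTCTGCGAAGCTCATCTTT
TRAV6-7-DV9 TRAJ26: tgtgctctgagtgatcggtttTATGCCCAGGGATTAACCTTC
TRAV7D-5 TRAJ53: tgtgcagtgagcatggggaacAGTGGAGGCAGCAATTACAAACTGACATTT
TRAV5-4 TRAJ11: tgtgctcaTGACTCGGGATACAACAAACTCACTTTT
TRAV13-4-DV7 TRAJ37: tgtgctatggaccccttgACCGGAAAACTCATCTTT
TRAV7-5 TRAJ32: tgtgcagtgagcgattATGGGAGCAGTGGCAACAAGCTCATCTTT
TRAV15-2-DV6-2 TRAJ23: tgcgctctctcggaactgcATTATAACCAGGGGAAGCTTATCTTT
TRAV12D-2 TRAJ37: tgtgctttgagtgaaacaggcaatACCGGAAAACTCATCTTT

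The first of these has 33 bases, of which 21 are the J end, and the fifth has 51 bases, of which 30 are the J end. The seventh and the tenth share TRAJ37 and end in the same 18 bases behind different lower case parts. Over the 473 distinct sequences of J segments with at least 10 sequences, the shared J end had a median of 23 bases and the part before it a median of 17.

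The TRAV3D-3 TRAJ21 sequence was in 922 barcodes (19.0%, 17.9 to 20.1%). The TRAV13N-1 TRAJ15 sequence was in 691 (14.2%, 13.2 to 15.2%), TRAV16D-DV11 TRAJ57 in 580 (11.9%) and TRAV6-7-DV9 TRAJ26 in 435 (8.94%, 8.16 to 9.78%). Together these 4 sequences were in 2383 barcodes, 49.0% of those with a productive TRA (47.6 to 50.4%). The step to the fifth sequence was large: TRAV7D-5 TRAJ53 was in 195 barcodes and TRAV5-4 TRAJ11 in 164. The 4 that followed were in 135, 112, 104 and 95 barcodes, and the 10 printed sequences covered 3111 barcodes (64.0%).

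Most distinct sequences were rare. Of the 551, 341 (61.9%) were seen in 1 barcode, 158 in 2 to 9 barcodes and 52 (9.44%) in at least 10. Those 52 covered 4146 barcodes (85.2%), whereas the 341 seen once lay in 330 barcodes (6.78%). The 341 seen once used 71 V and 40 J segments, and the 52 large ones, being fewer, could name at most 52 and used 36 V and 30 J. Their mean CDR3 length was nearly the same, 13.6 amino acids for sequences seen once and 13.4 for the large ones.

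By cells, V usage was led by the segments of the 4 largest sequences. TRAV3D-3 (chr14:52972532-52973038, GRCm38) was in 990 barcodes (20.4%, 19.2 to 21.5%), TRAV13N-1 (chr14:53162399-53162910) in 686 (14.1%) and TRAV16D-DV11 (chr14:53047287-53047821) in 595 (12.2%). TRAV6-7-DV9 (chr14:53709943-53710419), which by its name can also serve the delta chain, was in 420 (8.63%). TRAV5-4 followed in 230 barcodes (4.73%) and TRAV7D-5 in 204 (4.19%). In each of the first 4, over 92% of the barcodes with the segment carried a single CDR3 sequence, with 92.5% for TRAV3D-3 and 95.8% for TRAV16D-DV11.

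By distinct sequences, the order changed and the shares were flatter. TRAV6-6 had the most, 29 of 551 (5.26%, 3.55 to 7.47%), followed by TRAV16N with 28 (5.08%), TRAV3D-3 with 25 (4.54%), TRAV13-1 with 23 (4.17%) and TRAV12-2 with 21 (3.81%). TRAV12-1 and TRAV12D-3 had 17 each, TRAV5-4 and TRAV16 had 16 each, and TRAV6-7-DV9, TRAV7-5 and TRAV7-3 had 15 each. The intervals of these 12 segments overlap, so their order is not resolved at this number of sequences. With D and N copies merged into the segment without the letter the leader changed: TRAV16 had 51 sequences (9.26%), TRAV13-1 had 42 (7.62%), and TRAV6-6 and TRAV3-3 had 33 each (5.99%). TRAV13N-1, second by cells, had 10 sequences (1.81%), and TRAV16D-DV11, in the third place by cells, had 7 (1.27%). These counts include sequences 1 base from a large one. Among them were 5 beside TRAV3D-3 TRAJ21, 4 beside TRAV13N-1 TRAJ15, 2 beside TRAV16N TRAJ23 and 1 beside TRAV6-6 TRAJ45.

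The widest gap in points was that of TRAV3D-3, 20.4% by cells and 4.54% by sequences. The 4 leading V segments held 55.3% by cells and the 4 leading by sequences 19.1%, each as a sum of segment shares. The inverse Simpson index, the number of equally used segments that would give the same evenness, was 13.3 by cells and 42.2 by sequences. In 50 of the 76 V segments 1 sequence held at least 50% of the segment's barcodes. TRAV6-6 was less concentrated: its 141 barcodes (2.90%) were spread so that the largest sequence under that name held 20.6% of them. Of its contigs, 20 belonged to the TRAV6-7-DV9 TRAJ26 sequence, a large one found in 435 barcodes. At the other end, 11 V segments were named by 1 distinct sequence each.

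**Figure D1:**
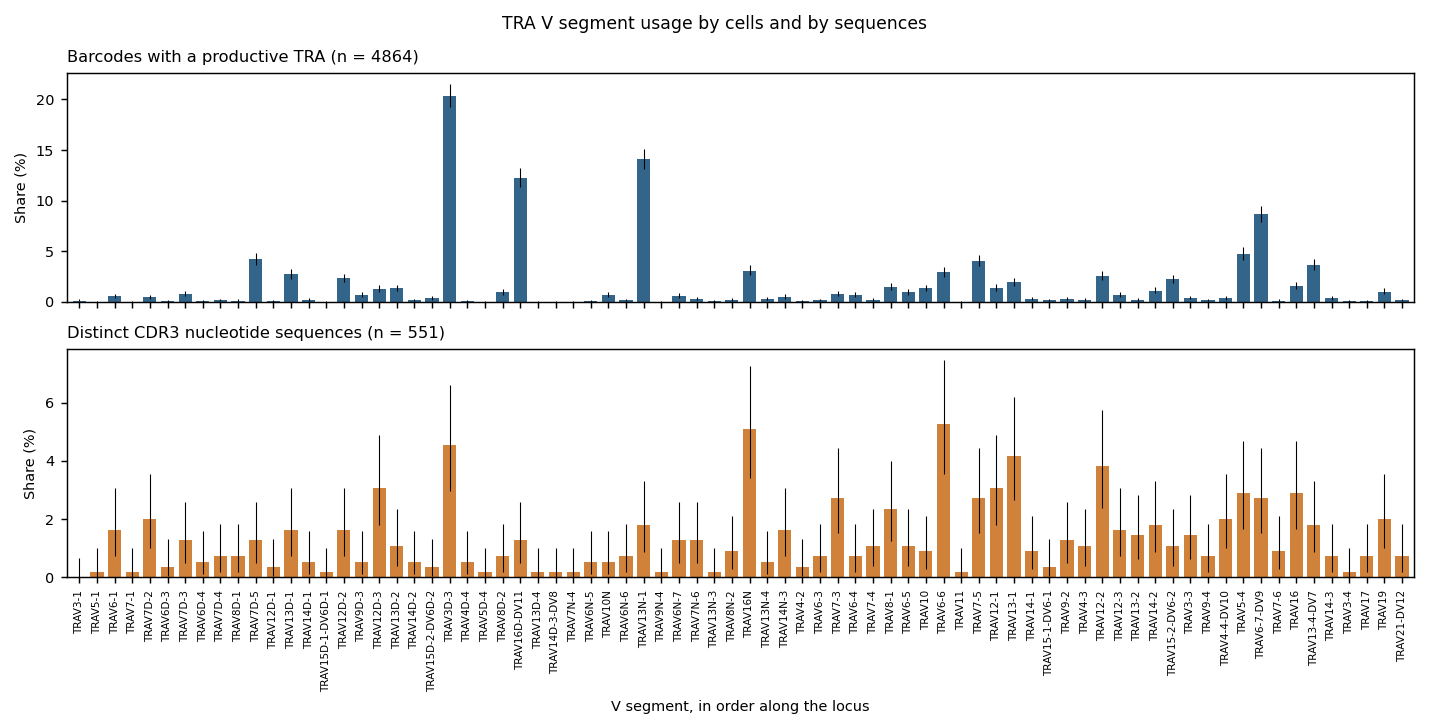
Share of barcodes (upper bars) and of distinct CDR3 sequences (lower bars) for each of the 76 V segments, in order along the locus, with exact 95% intervals as lines; the vertical scales differ. TRAV3D-3 reaches 20.4% of barcodes and 4.54% of sequences, while TRAV6-6 has 2.90% of barcodes and the highest share of sequences, 5.26%.

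V segments of the duplicated copies took a larger share of cells than of sequences, and a few large sequences held many of those cells. Segments with D in the copy position of the name had 135 sequences (24.5%) and 2275 barcodes (46.8%). Segments with N had 82 sequences (14.9%) and 975 barcodes, and segments with no such letter had 334 sequences (60.6%) and 2049 barcodes (42.1%). Of the 975 N barcodes, 638 held the leading sequence of TRAV13N-1. Of the 2275 D barcodes, 916 held that of TRAV3D-3 and 570 that of TRAV16D-DV11. Of the 2049 barcodes without such a letter, 394 held the leading sequence of TRAV6-7-DV9 and 164 that of TRAV5-4. Whether the gap extends to the copies at large was not tested. Of the segments that RefSeq does not mark as pseudogenes, 24 of 35 D copies, 13 of 31 N copies and 39 of 48 without a letter were seen. None of the 16 V segments marked as pseudogenes was named in a productive contig.

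The V segments group into 17 subgroups of similar sequence. By sequences TRAV6 had 86 (15.6%), TRAV7 79 (14.3%), TRAV12 75 (13.6%), TRAV13 71 (12.9%) and TRAV16 51 (9.26%). By cells TRAV13 had 23.8%, TRAV3 20.9%, TRAV16 16.8%, TRAV6 14.7% and TRAV7 had 536 barcodes. TRAV3 showed the widest gap of the large subgroups, with 34 sequences (6.17%), and the leading sequence held 922 of its 1016 barcodes. TRAV4 went the other way, with 22 sequences (3.99%) in 32 barcodes (0.658%) and at most 4 barcodes per sequence.

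Names of individual copies were less firm than names of subgroups. Among the 210 sequences seen in at least 2 barcodes, 60 (28.6%) carried more than 1 V name, while 1 of all 551 carried more than 1 J name. Of 5217 contigs of those 210 sequences, 246 (4.72%, 4.16 to 5.33%) had another V name than most contigs of their sequence. In 105 of these the name differed only in the copy letter, and in 240 (97.6%) it stayed within the subgroup. The TRAV13N-1 TRAJ15 sequence is an example: 638 of its 691 contigs were named TRAV13N-1, 27 TRAV13D-1, 16 TRAV13-4-DV7, 6 TRAV13-1 and 4 TRAV13D-2. TRAV3-1, named in 5 barcodes, was the main name of no sequence. With D and N copies merged into the segment without the letter, 43 V names remained.

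J usage showed the same contrast. By cells TRAJ21 (chr14:54198790-54198846) led with 982 barcodes (20.2%, 19.1 to 21.3%), followed by TRAJ15 (chr14:54204422-54204481) with 799 (16.4%), TRAJ57 (chr14:54158507-54158569) with 599 (12.3%) and TRAJ26 (chr14:54194490-54194549) with 481 (9.89%). TRAJ37 was in 273 barcodes (5.61%) and TRAJ23 in 259 (5.32%). TRAJ37 drew on several families, as its largest held 49.5% of its barcodes, against 96.8% for TRAJ57.

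By distinct sequences TRAJ22 (chr14:54197248-54197307) had the most, 37 (6.72%, 4.77 to 9.14%), then TRAJ21 with 36 (6.53%), TRAJ30 with 32 (5.81%), TRAJ15 with 27 (4.90%) and TRAJ26 with 24 (4.36%). TRAJ31 and TRAJ9 had 23 each, TRAJ49 22, TRAJ17 20, TRAJ23 19 and TRAJ27 17. TRAJ12, TRAJ13 and TRAJ40 had 14 each. TRAJ21, TRAJ15 and TRAJ26 were therefore among the leading segments on both counts, while TRAJ57 had 12 sequences (2.18%) for its 599 barcodes. The 2 counts are not separate, as sequences 1 base from a large one are included. There were 5 beside TRAV3D-3 TRAJ21 and 2 beside TRAV6-1 TRAJ21, 4 beside TRAV13N-1 TRAJ15 and 1 beside TRAV8D-2 TRAJ15, and 2 beside TRAV6-7-DV9 TRAJ26. TRAJ49 was the reverse, with 22 sequences in 30 barcodes and at most 3 barcodes per sequence.

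The 4 leading J segments held 58.8% by cells and the 4 leading by sequences 24.0%. The inverse Simpson index was 11.98 by cells and 29.3 by sequences, and in 24 of 42 J segments 1 sequence held at least 50% of the barcodes. Of the 51 J segments that RefSeq does not mark as pseudogenes, 9 were not seen: TRAJ59, TRAJ46, TRAJ41, TRAJ29, TRAJ28, TRAJ25, TRAJ20, TRAJ19 and TRAJ3. Among productive contigs a count of 0 allows a share of up to 0.0617% of barcodes or 0.544% of sequences. Contigs with a J and no V did name 4 of the 9: TRAJ28 in 429, TRAJ19 in 105, TRAJ25 in 98 and TRAJ41 in 85.

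**Figure D2:**
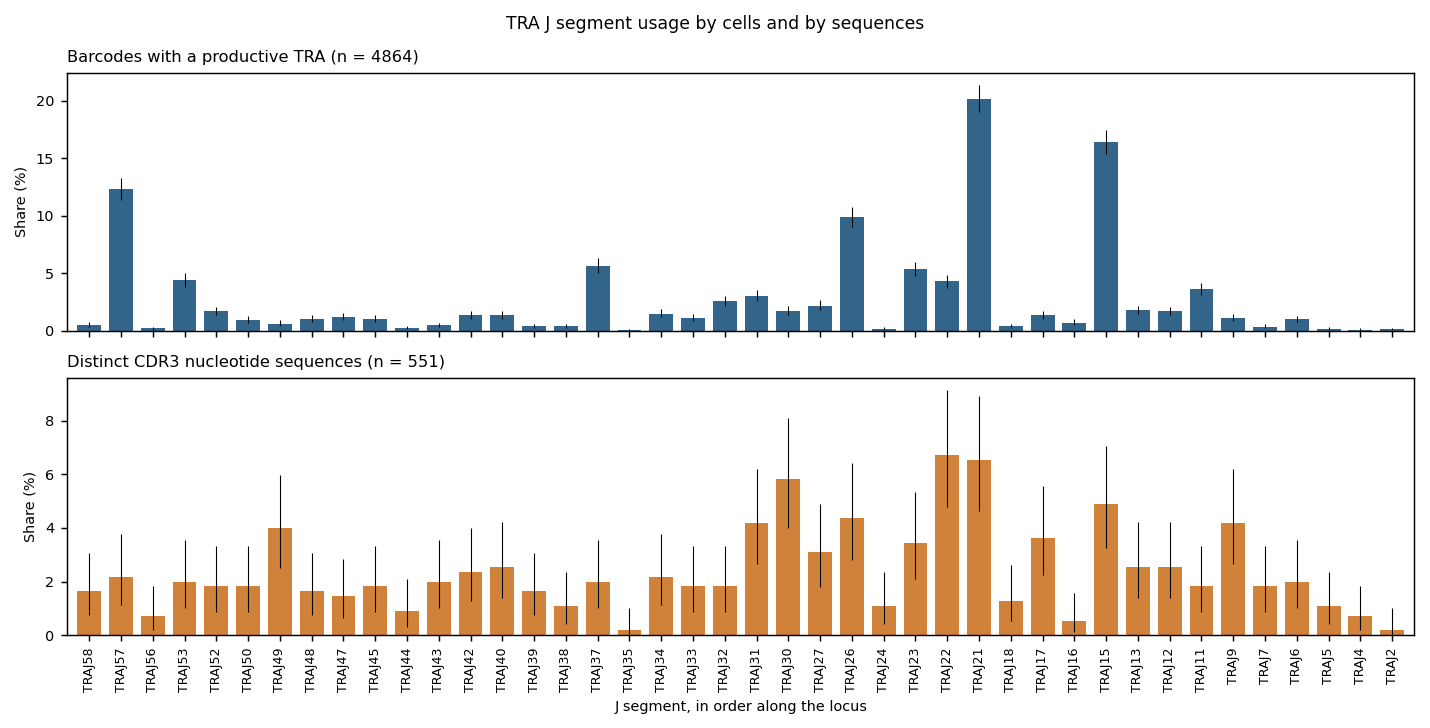
Share of barcodes (upper bars) and of distinct CDR3 sequences (lower bars) for each of the 42 J segments, in order along the locus from TRAJ58 to TRAJ2, with exact 95% intervals as lines; the vertical scales differ. TRAJ21, TRAJ15 and TRAJ57 stand out by barcodes, and TRAJ22 and TRAJ21 have the most sequences, 37 and 36.

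The 551 sequences used 419 of the 3150 possible pairs of the 75 V and 42 J segments they named (13.3%). A single sequence stood behind 334 of the pairs, 85 pairs had at least 2 and 24 had at least 3. By cells, the leading pairs were those of the printed sequences: TRAV3D-3 with TRAJ21 in 923 barcodes (19.0%), TRAV13N-1 with TRAJ15 in 644, TRAV16D-DV11 with TRAJ57 in 572, TRAV6-7-DV9 with TRAJ26 in 398, TRAV7D-5 with TRAJ53 in 194 and TRAV5-4 with TRAJ11 in 165. TRAV3D-3 and TRAJ21 were thus joined in most of the barcodes that held either segment.

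The first 2 of these pairs also held the most distinct sequences. TRAV3D-3 with TRAJ21 had 9, where the product of both segments' shares gives 1.63, and TRAV13N-1 with TRAJ15 had 7, where it gives 0.490. TRAV15-2-DV6-2 with TRAJ23, TRAV16N with TRAJ23 and TRAV14N-3 with TRAJ22 had 5 each, and TRAV6-7-DV9 with TRAJ26, TRAV8D-2 with TRAJ15 and TRAV13-1 with TRAJ27 had 4 each. Several of these sequences were near copies of a large one. In all, 29 of the 551 sequences (5.26%) had the same V, J and length as a sequence in at least 10 times as many barcodes and differed from it by 1 base. All 29 were seen in 1 barcode, 5 of them beside the TRAV3D-3 TRAJ21 sequence and 4 beside TRAV13N-1 TRAJ15. Whether they are separate rearrangements or copying and reading errors was not tested. With near copies merged, 522 sequences were left, TRAV3D-3 with TRAJ21 had 4, TRAV13N-1 with TRAJ15 had 3, and TRAV14N-3 with TRAJ22 had the most, still 5.

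The pairs known from innate-like T cells were not detected. TRAV11 with TRAJ18, the alpha chain of invariant NKT cells, was in 0 barcodes; TRAV11 was named in 1 barcode, there with TRAJ47, and TRAJ18 in 19 barcodes with 7 sequences. TRAV1 with TRAJ33, the alpha chain of MAIT cells, was in 0 barcodes, with no TRAV1 and with TRAJ33 in 54 barcodes and 10 sequences. The upper limit for both is again 0.0617% of barcodes. In the RNA library, cells with a TRA held 3 UMIs of Zbtb16, a transcription factor gene of those lineages, and 0 of Klrb1c.

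V and J positions were related along the locus. Over the 551 sequences the Spearman correlation between V and J order, each counted 5′ to 3′, was −0.32 and the Pearson correlation of start positions −0.27, so 3′ V segments went with 5′ J segments. These points share 1 library and the same segments, and the value is a description. The 302 sequences with V segments from TRAV6-4 to TRAV23, the 3′ end of the V region, had a median J number of 31 (J numbers fall towards 3′). The 133 sequences with TRAV1 to TRAV13D-3 and the 116 with TRAV8D-2 to TRAV7-3 had medians of 22. J segments from TRAJ61 to TRAJ42, the 5′ end of the J region, took 33.4% (28.1 to 39.1%) of the sequences of the 3′ V segments. They took 14.3% (8.83 to 21.4%) and 12.1% (6.76 to 19.4%) of the other groups. The intervals of the 3′ group and the others do not overlap.

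Single V segments followed this order with exceptions. TRAV16, near the 3′ end, had a median J number of 49.5 over 16 sequences, TRAV4-4-DV10 and TRAV19 of 40, TRAV6-6 of 31, and TRAV3D-3, farther 5′, of 21. TRAV8-1 and TRAV7-3, which lie between TRAV3D-3 and TRAV6-6, had 16 and 18. TRAV17, TRAV19 and TRAV21-DV12, a group chosen after the values were seen, joined TRAJ40 or a J segment 5′ of it in 15 of 19 sequences (78.9%, 54.4 to 93.9%), against 133 of 532 (25%, 21.4 to 28.9%) for all other V segments.

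The correlation differed between kinds of V name. It was −0.35 over the 334 sequences with V segments without a copy letter and 0.03 over the 217 with D or N. It was −0.35 over the 341 sequences seen once and −0.12 over the 52 in at least 10 barcodes. With D and N copies merged onto the position of the segment without the letter it was −0.16. The position of a sequence is that of the V name in most of its barcodes. Of repeated sequences, 28.6% did not keep that name in every barcode, and 4.72% of their contigs had another. Whether this bears on the differing correlations was not tested.

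**Figure D3:**
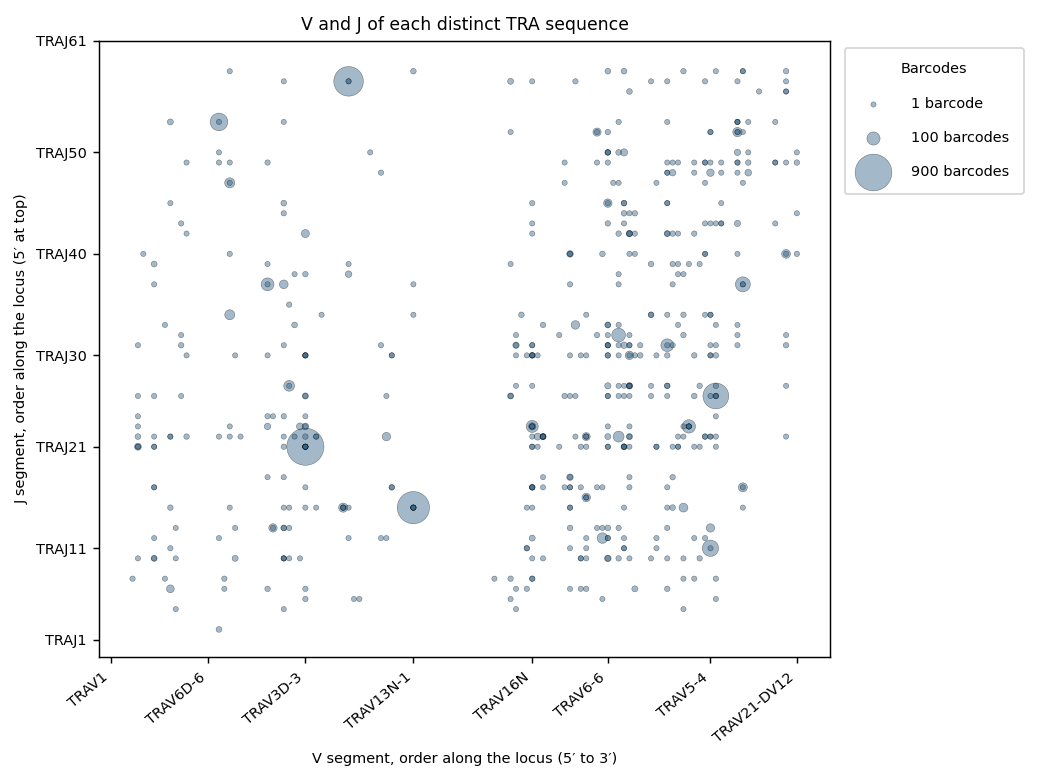
Each point is 1 of the 551 distinct sequences, placed by the order of its V segment (horizontal, 5′ to 3′) and of its J segment (vertical, 5′ at the top), with an area that grows with its barcodes. The 4 largest points are the 4 leading sequences, and the upper left, where 5′ V would meet 5′ J, is thinner than the upper right, where 3′ V segments lie.

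CDR3 length went with the J segment. Over the 551 sequences the length was 13.5 ± 1.45 amino acids (SD), from 10 to 17 with a median of 14, and 153 sequences (27.8%) had 14. TRAJ31 gave 12.3 ± 1.21 (23 sequences), TRAJ21 12.3 ± 1.52 (36) and TRAJ15 12.3 ± 1.03 (27), the shortest means among J segments with at least 10 sequences. TRAJ53 gave 15.9 ± 0.831 (11), TRAJ52 15.6 (10 sequences, 14 to 17) and TRAJ50 15.4 (10 sequences, 14 to 17), the longest. The difference between TRAJ31 and TRAJ53 is larger than the SD within either.

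The germline length of the J segment, 57 to 66 bases in RefSeq, ran in the same order. Over 28 J segments with at least 10 sequences its Pearson correlation with mean CDR3 length was 0.85 and the Spearman correlation 0.81, and Pearson was 0.78 without the 2 J segments farthest from the median. Differences between J segments held 36.5% of the variance of length over sequences, adjusted for the number of segments, and differences between V segments 17.8%. Among V segments TRAV13N-1 was shortest with 12.2 ± 0.422 (10 sequences), followed by TRAV13-4-DV7 with 12.5 and TRAV5-4 with 12.8. TRAV16 with 15.3 (16 sequences, 13 to 17), TRAV16N with 14.8 and TRAV6-6 with 14.1 were longest. V and J were not independent here, as TRAV16 joined long J segments such as TRAJ52 and TRAJ53 in 3 sequences each, and TRAV13N-1 joined TRAJ15 in 7 of 10, 4 of them near copies of the large one.

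Counted over contigs instead, the mean length was 13.3 ± 1.86, and single families moved the values of their J. TRAJ21 was at 11.1 amino acids, close to the 11 of the leading sequence, and TRAJ57 at 15.9 over contigs and 14.9 over sequences, beside a leading sequence of 16. TRAJ53 was at 16.9, with 17 in its leading sequence.

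**Figure D4:**
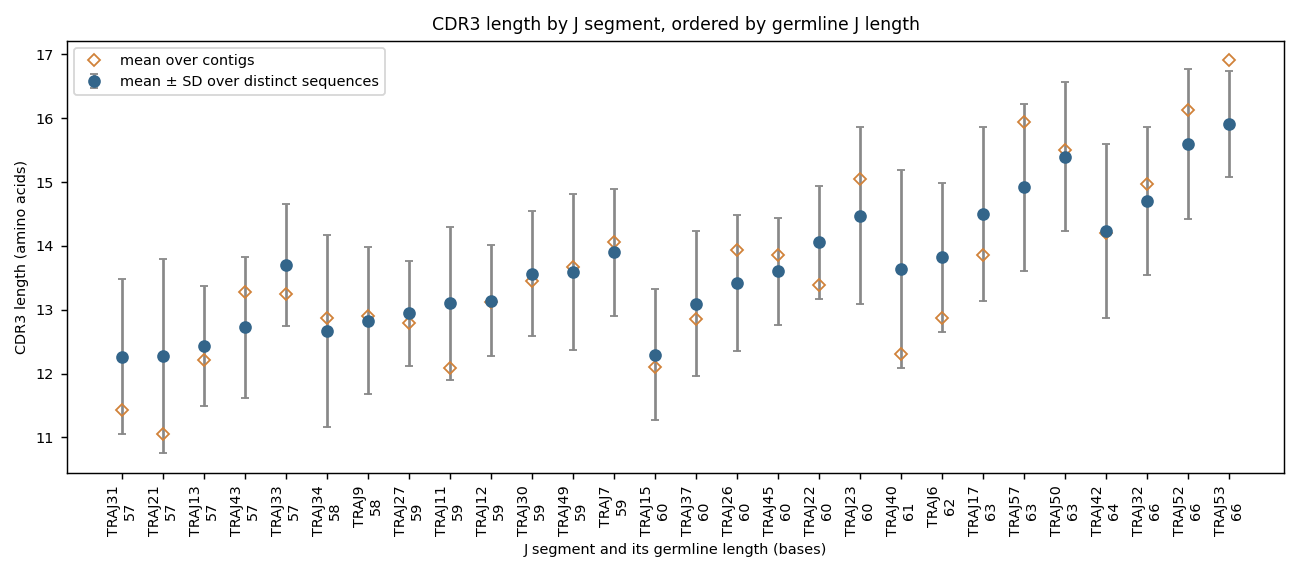
Mean CDR3 length with its SD over distinct sequences (filled circles) and the mean over contigs (open diamonds) for the 28 J segments with at least 10 sequences, ordered by germline J length from 57 to 66 bases. Means over sequences run from 12.3 for TRAJ31 to 15.9 for TRAJ53, and the diamonds leave the circles where 1 family dominates, as in TRAJ21.

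Capture depth was measured as UMIs per contig. A productive TRA contig had a median of 8 UMIs (quartiles 5 and 12, range 1 to 52), against 13 for the 4809 productive TRB contigs, and 104 TRA contigs (1.87%) rested on 1 UMI. A constant region was called as TRAC in 5267 contigs (94.8%). Sequences seen once had a median of 6 UMIs, those in 2 to 9 barcodes 7 and those in at least 10 barcodes 8. Among V segments with at least 10 sequences, the lowest median was 4 for TRAV19, then 5 for TRAV16, TRAV7-3 and TRAV8-1, and the highest 10 for TRAV13N-1, TRAV5-4 and TRAV4-4-DV10. Among J segments the lowest were TRAJ33 with 3, TRAJ12 with 4 and TRAJ40 with 4.5, and the highest TRAJ11 with 11, TRAJ57 with 10, and TRAJ15 and TRAJ27 with 9. These medians over contigs lean on large families, and with each sequence counted once by its own median the order changed. TRAJ12 was then at 9.75, TRAJ33 at 6, TRAJ40 at 6.5, TRAJ11 at 7.5, TRAJ57 at 6.5, TRAJ15 at 5 and TRAJ27 at 9. The TRAV10 TRAJ12 sequence, in 59 of the 81 barcodes with TRAJ12, had a median of 3 UMIs, and the TRAV6-4 TRAJ33 sequence, in 32 of 54, a median of 2. TRAV13N-1 was at 5.5 by sequences, TRAV19 at 6, TRAV5-4 at 11 and TRAV4-4-DV10 at 8.5. Medians differed by leading sequence too, from 6 UMIs for TRAV12D-2 TRAJ37 to 11 for TRAV16D-DV11 TRAJ57 and TRAV5-4 TRAJ11. Whether low capture hides cells of single families was not tested.

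A barcode held at most 2 productive TRA contigs, and 694 of 4864 (14.3%, 13.3 to 15.3%) held 2. T cells can keep productive rearrangements on both alleles, and 2 cells under one barcode would look the same; these cannot be told apart here. In 245 of the 694 (35.3%) both were among the 4 leading sequences. TRAV13N-1 TRAJ15 and TRAV3D-3 TRAJ21 shared 68 barcodes, the most of any combination, but the product of their barcode shares gives 131. All other combinations of the 4 leading sequences were below their product as well, such as TRAV16D-DV11 TRAJ57 with TRAV3D-3 TRAJ21 with 46 against 110. The product takes no account of the 4170 barcodes (85.7%) that held 1 TRA, so it runs too high for large sequences. A value below it therefore cannot show that the leading sequences shared barcodes less often than others. Some combinations of smaller families exceeded the product of their barcode shares: TRAV12-2 TRAJ31 with TRAV7-5 TRAJ32 shared 35 barcodes against 2.14, TRAV16 TRAJ52 with TRAV7D-5 TRAJ53 22 against 1.68, and TRAV10 TRAJ12 with TRAV15-2-DV6-2 TRAJ23 21 against 1.26. In the last of these, 21 of the 59 barcodes with the TRAV10 TRAJ12 sequence also held the other.

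The leading sequences also occurred in further barcodes, in contigs not marked productive. There were 17778 such TRA contigs: 8552 (48.1%) with V and J, 8130 (45.7%) with J and no V, and 1096 with V and no J. Of the 6976 with a CDR3, 4836 (69.3%) repeated a productive CDR3, 3000 (43.0%) one of the 10 printed sequences, and 168 (2.41%) a productive CDR3 of their own barcode. They had a median of 87 reads and 5 UMIs, and productive contigs a median of 1805 reads and 8 UMIs. The TRAV3D-3 TRAJ21 sequence was in 452 of the barcodes that lacked it as productive (9.92%), TRAV13N-1 TRAJ15 in 415 (8.67%), TRAV16D-DV11 TRAJ57 in 614 (12.5%) and TRAV6-7-DV9 TRAJ26 in 355 (7.04%). Barcodes with 2 productive TRA and these repeated sequences occurred beside the high cell shares above, and their part in those shares was not tested.

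The J segments of contigs with no V had another order again. TRAJ27 led with 971 (11.9%) and TRAJ26 followed with 936 (11.5%), then TRAJ37 with 548 and TRAJ49 with 481. TRAJ28 was in 429 (5.28%) and in no productive contig, and TRAJ21, first by cells, in 226 (2.78%).

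The leading TRA sequences were paired with a main beta chain. Among the 3106 barcodes with exactly 1 productive TRA and 1 productive TRB, there were 614 distinct pairs. TRAV3D-3 TRAJ21 went with 1 TRBV15 TRBJ1-1 sequence in 524 of 609 barcodes (86.0%, 83.0 to 88.7%), and TRAV16D-DV11 TRAJ57 with a TRBJ2-3 sequence in 300 of 374 (80.2%, 75.8 to 84.1%), whose V was annotated jointly as TRBV12-2 and TRBV13-2. The main share was lower for TRAV13N-1 TRAJ15, with TRBV29 TRBJ1-1 in 164 of 365 (44.9%, 39.8 to 50.2%). TRAV6-7-DV9 TRAJ26 had TRBV17 TRBJ1-1 in 146 of 247 (59.1%, 52.7 to 65.3%). The 365 are part of the 691 barcodes with TRAV13N-1 TRAJ15, as barcodes with 2 TRA, with no TRB or with more than 1 TRB are left out. Whether a family with a second beta chain lies behind the lower share was not tested. Seen from the beta chain, 164 of the 179 barcodes with that TRBV29 sequence (91.6%) carried TRAV13N-1 TRAJ15. Of the barcodes with the TRBV15 sequence, 71.7% carried TRAV3D-3 TRAJ21, the rest holding other TRA sequences.

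Across distinct pairs, the frequent TRAV segments named here each went with several TRBV. The 27 distinct pairs of TRAV6-6 used 11 of 22 TRBV names, led by TRBV29 in 9. The 39 pairs of TRAV3D-3 used 14, led by TRBV15 in 5, and the 38 pairs of TRAV16N used 15, led by TRBV17 in 6. These pairs are not independent, as the same TRA sequence enters with each TRB found beside it. The TRAV3D-3 TRAJ21 sequence had 16 distinct TRB in its 609 barcodes. TRBV29, TRBV15 and TRBV17 also name the main beta chains of leading TRA sequences above. How far stray partners add to these counts was not tested, so a preference for a TRBV is not decided here.

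The RNA library gave a second readout of V usage. After filtering it held 10338 cells, whose median depth was 1922 UMIs, and 4341 of the 4864 barcodes with a TRA (89.2%) were among them. Cells with a TRA had Cd3e at 1504 counts per 1000000 UMIs (CPM), Trac at 1701, Cd8b1 at 407 and Cd8a at 211. Among CD4 T cell markers, Foxp3 had 0 UMIs, Cd4 7, Cd40lg 73 and Zbtb7b 225 (in 4.31% of cells). Among gamma delta markers, Tcrg-C1 had 2 UMIs, Tcrg-C4 5, Trdc 13 and Tcrg-C2 24. Among B cell markers, Pax5 had 0, Cd79a 23, Ms4a1 27 and Cd79b 131 (in 2.21% of cells). V segment transcripts were sparse: 61 Trav genes held 2670 UMIs in all, against 31073 for Trac, and 19.3% of cells had a Trav UMI.

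V subgroups took broadly the same order in both libraries, and the shares of several differed beyond their counting intervals. TRAV16 held 32.2% of Trav UMIs (30.4 to 34.0%) and 16.8% of barcodes, and TRAV5 held 8.09% and 4.77%. Relative to its size, TRAV4 was farther apart, with 2.81% of Trav UMIs (2.22 to 3.51%) and 0.658% of barcodes (32 of 4864), as was TRAV9 with 3.82% and 1.11%. TRAV17, with 0.337% and 0.0822%, rested on 9 UMIs and 4 barcodes, and its intervals overlap. TRAV13 held 13.3% of Trav UMIs and 23.8% of barcodes, TRAV3 11.1% and 20.9%, TRAV6 5.88% and 14.7%, and TRAV7 held 5.62% of Trav UMIs. Over the 17 subgroups the Spearman correlation was 0.90 and Pearson 0.70, with 0.75 without the 2 subgroups farthest from the median. Both libraries come from the same sorted cells, so the points share their source. The cells counted differ, as 4341 of the 10338 RNA cells had a productive TRA. The matrix has no gene named Trav3d-3, and Trav3-3 held 260 UMIs.

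**Figure D5:**
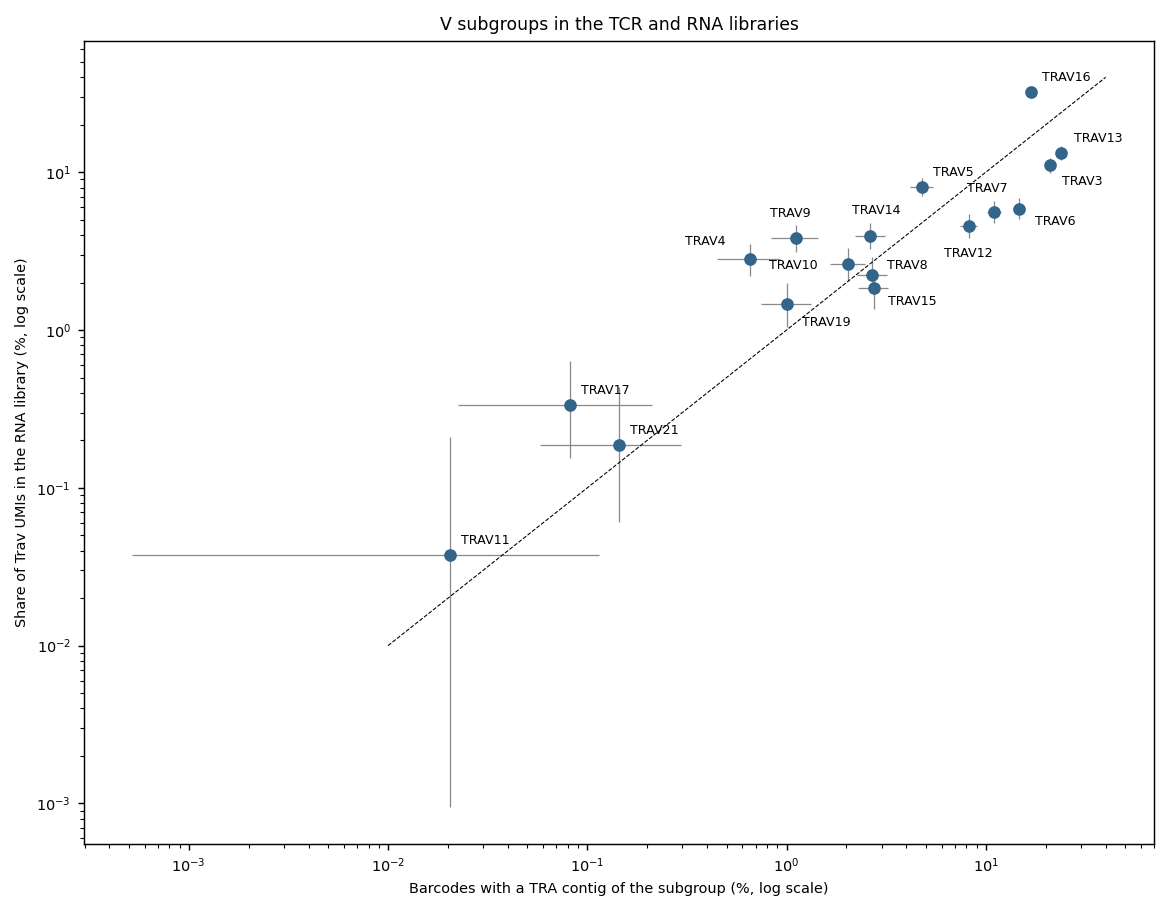
Share of Trav UMIs in the RNA library against the share of barcodes with a productive TRA contig, on log axes, for 17 V subgroups, with exact 95% intervals as lines and equality as a dashed line. TRAV16 lies above the dashed line at 32.2% against 16.8%, as do TRAV4 and TRAV9, and TRAV13, TRAV3, TRAV6 and TRAV7 lie below it.

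Pooled over cells, transcripts of a V subgroup were denser in cells with a contig of that subgroup. Among RNA cells with exactly 1 productive TRA, the 766 with a TRAV13 contig had Trav13 transcripts at 77.0 CPM and the 2893 others at 2.02 CPM, a ratio of 38.0 (21.5 to 73.3). TRAV5 gave 165 against 2.96 CPM (ratio 55.7, 33.8 to 94.6), TRAV7 66.3 against 2.28 and TRAV12 40.4 against 3.03 (ratio 13.3). TRAV16 cells had 182 CPM and other cells 13.3, a ratio of 13.7 (10.7 to 17.6), with median depths of 2420.5 and 1969 UMIs. TRAV3 had the lowest ratio of the 8 largest subgroups, 28.8 against 9.10 CPM (3.16, 2.09 to 4.75), then TRAV6 with 29.6 against 5.63 (5.26, 3.16 to 8.66). Cells of one family share a contig and are not replicates, so these intervals cover counting error in 1 library. The sums are small: 131 Trav13 UMIs in the 766 TRAV13 cells and 256 Trav16 UMIs in 558 TRAV16 cells. Trav3 had 44 UMIs in 700 TRAV3 cells and 60 in the 2959 others. In each of the 8 subgroups UMIs were fewer than cells, so many single cells showed none.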

How the data were processed

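The cells were profiled as 1 single-cell RNA library and 1 TCR library of the same sorted cells. Both deposited tables used here are raw: UMI counts of each gene in each barcode for RNA, and UMI and read counts of each assembled contig for the TCR. The deposited contig length, in bases, and the clonotype table were not used. Per the submitters' processing notes the tools were STAR 2.6.1a, featureCounts 2.0.1 and cutadapt 1.17, and the build GRCm38; the notes list them without role or order. Which program assembled the contigs: not given in the sources used here.

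A distinct sequence is a CDR3 nucleotide sequence under the V and J names of most of its barcodes (ties by UMIs, then name). Shares have exact Clopper-Pearson intervals and UMI sums exact Poisson intervals, and a count of 0 was set against 3 counts. PCR errors and lost molecules are outside these intervals. RNA barcodes with fewer than 200 genes or a mitochondrial share of 20% or more were left out. Doublets were not called, and an alternative leaves out barcodes with more than 1 productive TRB. Segment order, positions and lengths come from RefSeq's table for GRCm38.p6, where all 76 V and 42 J names matched, on chromosome 14. Calculations used python 3.11.15, numpy 2.4.6, pandas 2.3.3, scipy 1.17.1 and matplotlib 3.10.9, and were tested on simulated data.

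The members, lists and tests were chosen with earlier results of these data known. Segments named in full are the 12 of each kind with most sequences, the 6 with most cells, the leading 8 pairs by sequences and 6 by cells, the 10 largest sequences, and the 3 extremes of length and of UMIs among segments with at least 10 sequences.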

Additional observations from a re-analysis of the deposited data

How the results depend on the processing

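No paired analysis was possible because no groups were compared. The TCR and RNA libraries are different readouts of the same sorted cells, joined by barcode. Of 181 values of 18 results under other settings, 163 stayed within the main interval or tolerance, 18 moved and 0 changed sign. Only the correlation could change sign. Settings that only select or redefine distinct sequences leave barcode shares, segment numbers and UMI medians as they were. Those values are among the 163 but could not move, so the count overstates stability. The tolerance was 1.5 times for counts, 0.1 for the correlation, 0.25 amino acids and 1 UMI. Within it, the number of pairs still ranged from 339 to 466 around 419, and the sequences of TRAV3D-3 with TRAJ21 from 7 to 10 around 9. The causes were not tested unless the setting itself gives them. Without the largest sequence, TRAV3D-3 was at 1.78% of barcodes, TRAJ21 at 1.47% and their pair at 0.193%. With contigs of at least 5 UMIs, TRAV3D-3 was at 21.6% and its pair with TRAJ21 at 20.1%, and the median UMIs were 10 over contigs and 7 for TRAJ33. With the contig of most UMIs per barcode, TRAV3D-3 was at 18.5%, TRAJ21 at 18.3% and their pair at 17.3%. With sequences of at least 2 barcodes, TRAV6-6 was at 8.57% of sequences, 194 pairs remained, TRAV3D-3 with TRAJ21 had 1 sequence, and mean length was 12.6 for TRAJ31 and 16.2 for TRAJ53. With V copies merged, 43 V names were left and the correlation of V and J order was −0.16. With near copies merged, TRAV3D-3 with TRAJ21 had 4 sequences. Counting by CDR3 with the names of each contig, and all settings for TRA with TRB pairs, were chosen after seeing the data. Segments with few sequences are limited by the 551 sequences of this library.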
